A study of Mus musculus with 4 samples.

Results

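The cells described here are the E14.5 germ cells of the mouse fetal ovary in which the meiotic gene Sycp3 was detected and the pluripotency gene Pou5f1 was not. They were chosen by 4 conditions on unique molecular identifiers (UMIs, each standing for 1 captured transcript): a UMI of at least 3 of the 6 germ cell genes Dazl, Ddx4, Dnd1, Mael, Dppa5a and Mov10l1, none of the erythroid gene Alas2, at least 1 of Sycp3 and none of Pou5f1. They number 529 of the 2390 germ cells that met the first 2 conditions at E14.5 (22.1%, exact binomial 95% interval 20.5 to 23.9%), of 4787 E14.5 cells and of 19387 cells in all. Gonads from XX embryos of the C57BL/6 strain, digested with TrypLE, were profiled daily from E11.5 to E14.5 on the 10x Chromium droplet platform, whose version 2 kit reads transcript 3′ ends. Each stage is 1 library, no group was treated, and the number of embryos pooled is not given in the sources used here. The other 1861 E14.5 germ cells were 1541 with both Sycp3 and Pou5f1 and 320 with no Sycp3, and they serve as the comparison. With 1 library and no replicates, no test was made, and every interval below covers counting error only.

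In XX gonads, germ cells stop dividing by mitosis and enter meiosis under retinoic acid and BMP signals, through STRA8 and its partner MEIOSIN. In the prophase that follows, REC8- and SMC1B-containing cohesin and the axis proteins SYCP2, SYCP3 and the HORMADs fold the chromosomes, SPO11 cuts the DNA at sites marked by PRDM9, and DMC1 and its partners repair the breaks while SYCP1 zips the homologues together. The network inherited from primordial germ cells, with Pou5f1, Sox2, Utf1 and Dppa3 among its genes, is shut down over the same days.

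The Sycp3+ Pou5f1- cells were shallower than the cells they are compared with. Their median was 13044 UMIs (range 7942 to 47030) and 3449 genes, against 16302 UMIs and 3849 genes in the Sycp3+ Pou5f1+ cells and 17602 UMIs in the Sycp3- cells. When the Sycp3+ Pou5f1+ cells were thinned to 5000 UMIs each, 572 of the 1541 (37.1%) had no Pou5f1 UMI left. At 1 common Pou5f1 rate in the 2070 Sycp3+ cells, 193 of them would be expected to have no UMI at their depths, against the 529 seen. The Sycp3+ Pou5f1+ cells held 1 to 20 Pou5f1 UMIs each. Any variation in the rate between cells raises the number of counts of 0, so this comparison decides nothing about them. The part of depth in the 529 counts of 0 was not tested beyond these values and the depth classes described further on. Mitochondrial UMIs were alike, at a median of 2.78% and 2.65%. Of the 529 barcodes, 9 also occurred in another library, but none of those was a germ cell there. A doublet score called 94 of the 4787 cells (1.96%), 13 of the 529 (2.46%) and 2.85% of the other germ cells. The median score was 0.028 in the 529 and 0.036 in the other germ cells.

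The cells were labelled as advanced in meiosis, and the 3 marker genes that did not choose them were present in nearly all of them or in most. In cells thinned to 5000 UMIs, Sycp1, the gene of the transverse filament that joins homologues, was detected in 93.8% of the Sycp3+ Pou5f1- cells (95% interval 91.4 to 95.7%) against 77.9% of the Sycp3+ Pou5f1+ cells. Smc1b (the meiotic SMC1 cohesin subunit) was detected in 98.5% against 96.3%, and Tex101 (a surface protein of germ cells) in 81.7% against 53.1%. In 1605 somatic cells, which should lack these genes, the shares were 3.55%, 7.54% and 1.74%, at a median depth of 10144 UMIs against 13044 before thinning. They were E14.5 cells with fewer than 3 of the 6 germ cell genes, no Alas2 UMI and at least 2 of 5 somatic genes. These 5 were Wt1, Gata4, Nr2f2, Pdgfra and Tcf21, and the choice itself sets part of the levels of the choosing genes in this background. Without thinning the shares in the Sycp3+ Pou5f1- cells were 98.1%, 99.4% and 94.5%. Together the 3 markers stood at 3229 CPM (UMIs of a gene or list per 1e+06 UMIs of the group), against 1707 CPM in the Sycp3+ Pou5f1+ cells and 784 CPM in the Sycp3- cells.

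Cells that met the same 4 conditions were few before E14.5. There was 1 of 242 germ cells at E11.5 (0.413%), 11 of 668 at E12.5 (1.65%) and 31 of 783 at E13.5 (3.96%). Germ cells of the earlier libraries were deeper, with medians of 31094, 27927 and 24938 UMIs, so Sycp3 and Pou5f1 were also read in cells thinned to 5000 UMIs. The shares were then 2.89%, 5.39%, 8.81% and 37.2% in stage order, in the same order as without thinning. The plot of shares by stage shows both series, and stage and library cannot be told apart.

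**Figure D1:**
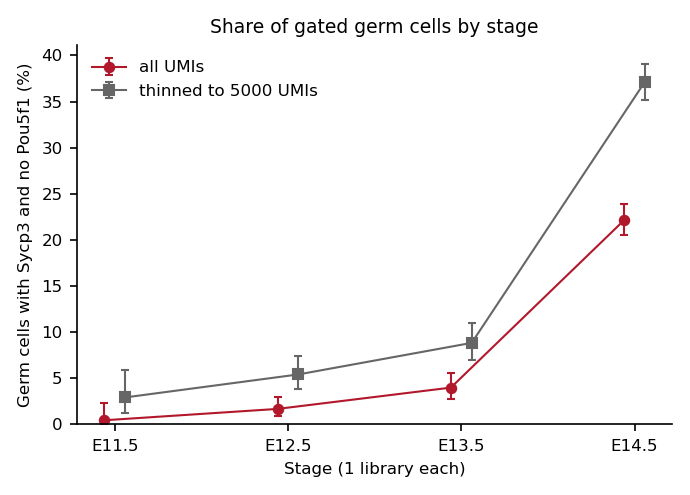
Share of germ cells with Sycp3 and without Pou5f1 at each stage (y axis, percent; x axis, embryonic stage, 1 library each), with exact binomial 95% intervals. Circles use all UMIs and end at 22.1% at E14.5, and squares use cells thinned to 5000 UMIs and end at 37.2%.

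The few earlier cells that met the conditions had less of the meiotic program than those at E14.5. The meiotic prophase genes (5 lists summed, 50 genes, Sycp3 left out) stood at 535 CPM in the single E11.5 cell, in which 23.4% of UMIs were mitochondrial. They stood at 1345 CPM at E12.5, 2319 CPM at E13.5 and 8176 CPM at E14.5. Stra8, the retinoic acid-induced regulator of meiotic entry, was at 7.37 CPM at E12.5, 431 CPM at E13.5 and 1313 CPM at E14.5. Genes of the pluripotency list ran the other way, at 3883 CPM at E12.5, 2107 CPM at E13.5 and 769 CPM at E14.5. Prdm9 had 0 UMIs in the 11 cells of E12.5 and stood at 5.05 CPM (1.04 to 14.8) in the 31 cells of E13.5 and 96.7 CPM (89.7 to 104) at E14.5. The E12.5 and E13.5 cells without a Pou5f1 UMI thus held more of the other pluripotency genes than those of E14.5.

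Against all other E14.5 germ cells, the Sycp3+ Pou5f1- cells were higher in genes of recombination and of the chromosome axis. They were lower in pluripotency genes and in some mitotic genes. A gene counted as higher or lower when its ratio was at least 2 and the Poisson intervals of both levels did not overlap, among genes with at least 50 UMIs and at least 20 CPM in the higher group. Of 5745 genes compared, 280 were higher (4.87%) and 160 lower (2.79%), and the median log2 ratio was 0.07. These shares over all genes are the background for every count of list genes given below. Against the Sycp3+ Pou5f1+ cells alone the counts were 196 higher (3.44%) and 120 lower (2.1%) of 5705 genes. Against the Sycp3- cells they were 773 higher (13%) and 463 lower (7.8%) of 5934. All 120 genes lower against the Sycp3+ Pou5f1+ cells and 190 of the 196 higher ones were also past the threshold against the Sycp3- cells. The cells were chosen on 2 genes of this same contrast, so these shares describe the groups and support nothing about them. Depth moved with the counts: with the other germ cells weighted to the same depth (a weighted median of 13036 UMIs), 94 genes were higher and 91 lower.

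**Figure D2:**
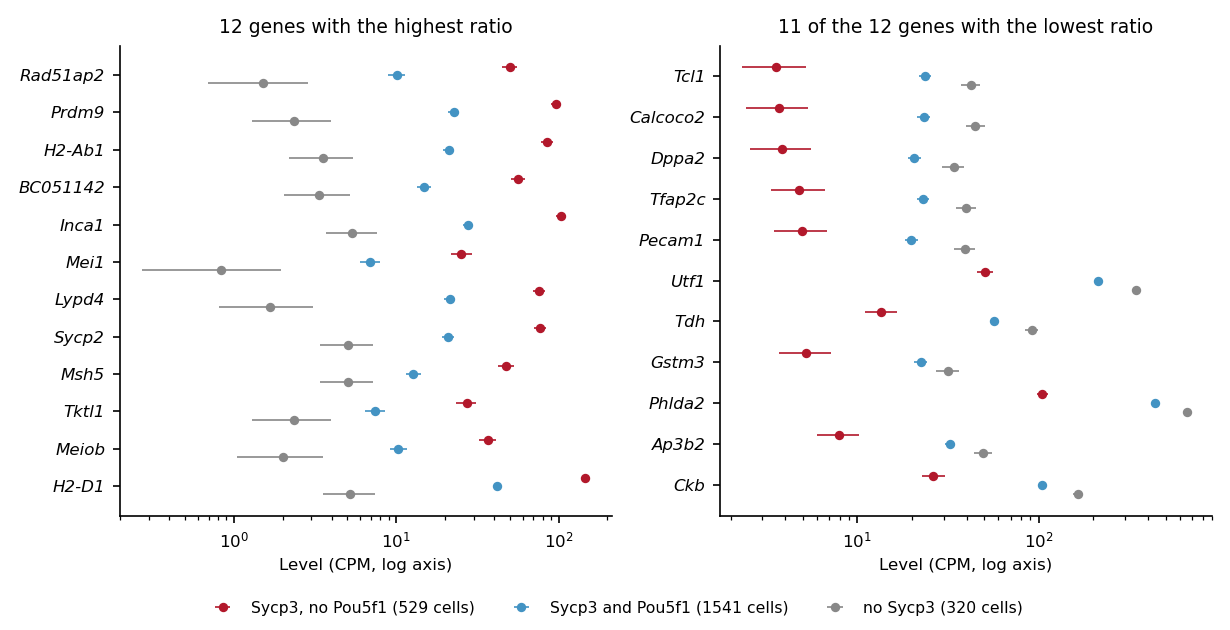
Levels (x axis, CPM, log scale) of the 12 genes with the highest ratio and 11 of the 12 with the lowest ratio of Sycp3+ Pou5f1- cells to the other germ cells at E14.5 (y axis). Points are summed levels with Poisson 95% intervals in the 3 groups of germ cells, and for each gene shown the Sycp3+ Pou5f1+ cells lie between the other two.

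Of the 12 genes with the highest ratios, 6 act in recombination or on the chromosome axis. Rad51ap2, a gene of meiotic recombination, stood at 50.1 CPM (45.1 to 55.5) in the Sycp3+ Pou5f1- cells, 10.0 CPM in the Sycp3+ Pou5f1+ cells and 1.51 CPM in the Sycp3- cells, a log2 ratio of 2.56 (2.33 to 2.78) to the other germ cells. Prdm9, the histone methyltransferase that marks recombination hotspots, stood at 96.7, 22.6 and 2.35 CPM in the same order (log2 ratio 2.35). Mei1, needed for the breaks to form, stood at 25.2, 6.91 and 0.84 CPM (2.11). Sycp2, a component of the lateral element, stood at 77.0, 20.9 and 5.04 CPM (2.09), Msh5, a crossover factor, at 47.5, 12.7 and 5.04 CPM (2.07), and Meiob, a single-strand DNA binding protein, at 36.6, 10.3 and 2.02 CPM (2.05). Each of these genes formed a staircase over the 3 groups, with intervals that did not touch.

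The remaining 6 of these 12 genes lie outside the recombination machinery. They were the major histocompatibility genes H2-Ab1 (85.0 CPM against 17.9 CPM in the other germ cells, log2 ratio 2.25) and H2-D1 (146 against 35.3 CPM, 2.04), Inca1, an inhibitor of cyclin A1-bound CDK2 (104 against 23.9 CPM, 2.12), the transketolase-like gene Tktl1 (27.1 against 6.51 CPM, 2.06), Lypd4 (76.1 against 17.9 CPM, 2.09) and BC051142 (56.0 against 12.7 CPM, 2.14). With the other germ cells weighted for depth, all 12 were still past the threshold, at log2 ratios from 1.37 (H2-D1) to 1.95 (Rad51ap2).

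The 12 genes with the lowest ratios were led by genes of pluripotent and primordial germ cells. Tcl1, a coactivator of AKT, stood at 3.56 CPM (2.33 to 5.22) in the Sycp3+ Pou5f1- cells, 23.5 CPM in the Sycp3+ Pou5f1+ cells and 42.2 CPM in the Sycp3- cells, a log2 ratio of -2.92 to the other germ cells. Dppa2 stood at 3.83, 20.6 and 33.9 CPM (-2.59), Tfap2c, a transcription factor of primordial germ cells, at 4.79, 23.1 and 39.8 CPM (-2.44), and Utf1, a chromatin-bound pluripotency factor, at 50.7, 213 and 343 CPM (-2.22). Phlda2, an imprinted gene, had the highest level of the 12 in the other germ cells and stood at 105, 435 and 658 CPM (-2.18). Others were Calcoco2 (-2.87), Pecam1 (-2.24), the threonine dehydrogenase gene Tdh (-2.21), Gstm3 (-2.21), Ap3b2 (-2.16) and the creatine kinase gene Ckb (-2.13). Weighted for depth, 8 of these 12 reached the minimum level and all 8 were past the threshold, and the log2 ratios of the 12 ran from -2.52 (Tcl1) to -1.75 (Tdh).

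The promoters of the genes that were higher held a motif known from STRA8-bound promoters more often than those of the genes compared at large. The 250 bases before each start site were taken from RefSeq (build GRCm38.p6) and searched on both strands for CNCCTCAG. It occurred in 36 of the 229 higher genes with a promoter entry (15.7%), in 5 of 115 lower genes (4.35%), in 340 of 4531 compared genes (7.5%) and in 1726 of all 27025 promoters (6.39%). The E-box CACGTG, a palindrome, occurred in 15 of the 229 (6.55%) against 9.36% of compared genes and 6.05% of all promoters. It occurred in 7 of the 33 prophase genes compared (21.2%) and in 3 of the 19 of them that were higher (15.8%). The E2F core TCCCGC occurred in 68 of the 229 (29.7%) against 33.1% of compared genes and 16.9% of all promoters. It occurred in 17 of the 33 prophase genes (51.5%) and in 8 of the 19 higher ones (42.1%). In the 229 promoters, matches of CNCCTCAG overlapped a match of TCCCGC in 1 promoter and of CACGTG in none. These shares are descriptions, with no test, and a match is not a bound site.

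Of the 10 of the 12 highest genes with an entry, 4 held CNCCTCAG: Inca1, Lypd4, Msh5 and H2-D1. The first 3, whose matches lie in the last 150 bases before the start, are shown with that motif in capitals, and Sycp1 and Hormad1 with CACGTG in capitals, because they stand for the motif groups above. Sycp1 and Hormad1 are prophase genes that were not past the threshold. Each is the 150 bases before the start site that the RefSeq promoter table uses, 5′ to 3′ on the gene's own strand, in GRCm38.p6. The annotated spans of Inca1, Lypd4 and Msh5 begin upstream of that start, so these stretches lie partly or wholly inside the gene's span and the start is one of several.
Inca1 (chr11:70700156-70700305, minus strand): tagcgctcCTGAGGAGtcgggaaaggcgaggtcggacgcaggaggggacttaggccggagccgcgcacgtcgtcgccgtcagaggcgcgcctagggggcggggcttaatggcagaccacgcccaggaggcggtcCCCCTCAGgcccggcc
Lypd4 (chr7:24869692-24869841, minus strand): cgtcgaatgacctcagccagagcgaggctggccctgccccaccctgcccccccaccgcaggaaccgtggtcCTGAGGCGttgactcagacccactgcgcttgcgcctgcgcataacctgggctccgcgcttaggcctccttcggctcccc
Msh5 (chr17:35046623-35046772, minus strand): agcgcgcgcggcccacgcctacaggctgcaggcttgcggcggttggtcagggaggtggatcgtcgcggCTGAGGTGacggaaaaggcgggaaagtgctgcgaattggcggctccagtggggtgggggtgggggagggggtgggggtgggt
Sycp1 (chr3:102936101-102936250, minus strand): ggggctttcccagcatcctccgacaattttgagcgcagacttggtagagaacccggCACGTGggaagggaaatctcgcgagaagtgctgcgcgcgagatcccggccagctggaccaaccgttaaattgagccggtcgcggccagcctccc
Hormad1 (chr3:95559527-95559676, plus strand): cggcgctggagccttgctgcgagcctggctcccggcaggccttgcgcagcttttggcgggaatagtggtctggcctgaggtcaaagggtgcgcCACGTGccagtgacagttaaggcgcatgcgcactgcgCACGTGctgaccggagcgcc
Inca1 held CNCCTCAG at 2 places, beginning 142 and 16 bases before the start, Lypd4 at 1 place 79 bases before it and Msh5 at 1 place 82 bases before it. Hormad1 held CACGTG at 2 places, 57 and 20 bases before the start, and Sycp1 at 1 place 94 bases before it.

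Of the 8 genes on the meiotic entry list 7 could be compared and 1, Meioc, was higher. Their median log2 ratio was 0.33 against 0.07 over all genes. Stra8 stood at 1313 CPM (1286 to 1339) in the Sycp3+ Pou5f1- cells, 920 CPM in the Sycp3+ Pou5f1+ cells and 337 CPM in the Sycp3- cells (log2 ratio to the other germ cells 0.69). Meioc, which stabilises the early meiotic program, stood at 170 CPM against 83.7 CPM in the other germ cells (1.02), but at 0.57 weighted for depth, where none of the 7 was past the threshold. Rbm46, an RNA-binding protein, stood at 126 against 100 CPM (0.33). Stra8 had a UMI in 97.9% of thinned Sycp3+ Pou5f1- cells and in 90.3% of thinned Sycp3+ Pou5f1+ cells, against 5.48% of somatic cells. Zglp1 and Msx2, genes of the BMP branch of meiotic entry, had log2 ratios of -0.59 and -0.63, in the other direction from Stra8.

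The prophase genes were higher as a group. The 5 lists (axis and synaptonemal complex, meiotic cohesin, break formation, strand exchange and telomere attachment) summed to 8176 CPM (8110 to 8242) in the Sycp3+ Pou5f1- cells, 4114 CPM in all other germ cells, 4481 CPM in the Sycp3+ Pou5f1+ cells, 2428 CPM in the Sycp3- cells and 412 CPM in somatic cells. Of 42 genes compared 25 were higher and none lower, with a median log2 ratio of 1.02 against 0.07 over all genes. Weighted for depth, 17 of the 25 stayed past the threshold and the log2 ratio of the sum was 0.73 instead of 0.99. Cell by cell, the median was 82.4 UMIs of these genes per 10000 (quartiles 58.9 and 106), against 42.4 (29.3 and 61.6) in the Sycp3+ Pou5f1+ cells, so the quartiles of the groups overlapped.

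Of the synaptonemal complex and axis list, 6 of the 9 genes compared were higher. Sycp1 stood at 715 CPM against 366 CPM in the other germ cells (log2 ratio 0.96), just under the threshold. Syce2, of the central element, stood at 702 against 459 CPM (0.61). 4930447C04Rik, the gene of the central element protein SIX6OS1, stood at 432 against 195 CPM (1.15), and the central element genes Syce3 and Tex12 at 271 against 99.1 CPM (1.45) and 270 against 88.4 CPM (1.61). All 9 had ratios above 1, and the lateral element gene Sycp2 had the highest of the list. Weighted for depth 3 of the 6 were past the threshold, and 4930447C04Rik was not (0.85).

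Cohesin genes differed by subunit. Smc1b stood at 2035 CPM (2003 to 2068) in the Sycp3+ Pou5f1- cells, 1103 CPM in the Sycp3+ Pou5f1+ cells and 550 CPM in the Sycp3- cells (log2 ratio to the other germ cells 1.02). Stag3 stood at 200 CPM against 103 CPM (0.95), but Rec8, the meiotic kleisin, at 152 against 146 CPM (0.05, interval -0.04 to 0.15). Among subunits shared with mitosis, Smc3 stood at 567 against 461 CPM (0.30), while Rad21, the mitotic kleisin, stood at 36.3 against 78.3 CPM and was lower (-1.11). Neither call held when the other cells were weighted for depth, with Smc1b at 0.78 and Rad21 at -0.75.

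Genes of break formation and strand exchange included the highest ratio of all genes past the threshold, that of Rad51ap2. Of the break formation list 6 of 7 genes compared were higher, with a median log2 ratio of 1.71. Zcwpw1, a reader of the marks PRDM9 writes, stood at 639 against 316 CPM (1.01), and the scaffold gene Ankrd31 at 42.5 against 12.1 CPM (1.81). Weighted for depth 4 of the 6 were past the threshold, and Zcwpw1 was not (0.79). Spo11 itself was under the 20 CPM minimum, at 19.3 CPM (16.3 to 22.8) against 9.73 CPM. Of the strand exchange and crossover list 10 of 18 were higher: Tex15 stood at 390 against 131 CPM (1.58), Dmc1, the meiotic recombinase, at 99.0 against 36.7 CPM (1.43), and the helicase gene Hfm1 at 79.8 against 29.8 CPM (1.42). The recombinase partners Psmc3ip and Mnd1 were level, each at a log2 ratio of 0.01. Telomere attachment genes were mixed: Spdya, the activator of CDK2 at telomeres, stood at 126 against 33.0 CPM (1.93) and Ccdc79, the gene of TERB1, at 68.3 against 19.8 CPM (1.79), while Terf1 and Cdk2 had ratios of 0.12 and -0.09.

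**Figure D3:**
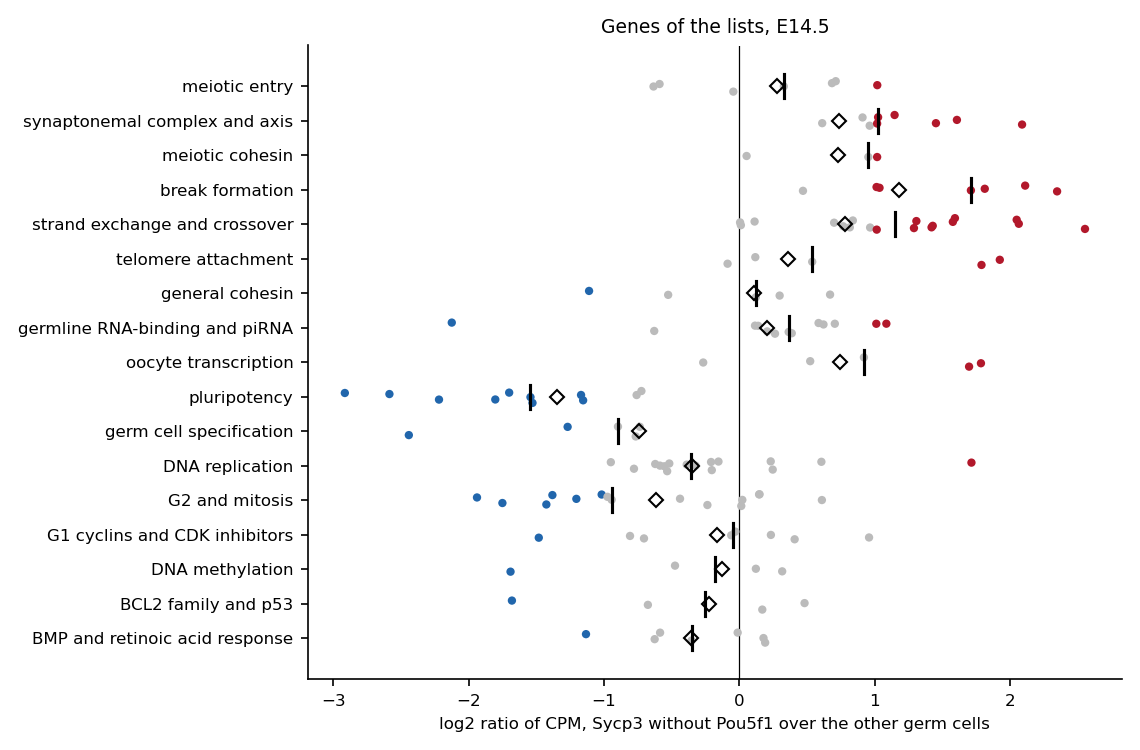
log2 ratio of CPM in Sycp3+ Pou5f1- cells over the other E14.5 germ cells (x axis) for each gene compared, by list (y axis). Red and blue points are past the threshold, grey points are not, bars are list medians and open diamonds the medians with the other cells weighted for depth. Recombination lists lie to the right and the pluripotency list to the left.

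The pluripotency list, with Pou5f1 left out, was lower as a group. It summed to 769 CPM (749 to 790) in the Sycp3+ Pou5f1- cells, 1958 CPM in the Sycp3+ Pou5f1+ cells, 2635 CPM in the Sycp3- cells and 56.5 CPM in somatic cells. Of 11 genes compared 9 were lower and none higher, with a median log2 ratio of -1.54, and 7 of the 9 were past the threshold when weighted for depth. Dppa5a, also a gene of the selection, stood at 377 against 838 CPM in the other germ cells (-1.15, and -0.93 weighted for depth). Dppa3, the maternal factor also called Stella, stood at 166 against 538 CPM (-1.70), and Sall4 at 36.6 against 105 CPM (-1.53). Dppa3 had a UMI in 43.5% of the thinned Sycp3+ Pou5f1- cells (39.2 to 47.8%) and 81.4% of the thinned Sycp3+ Pou5f1+ cells, against 3.8% of somatic cells. Dppa3, not a gene of the selection, was thus still detected in more Sycp3+ Pou5f1- cells than somatic cells. The sum of the list was also higher than in somatic cells. Dppa5a helped to choose both of these groups, so the choice itself sets part of that difference. Nanog was at 2 UMIs in all 529 cells, or 0.27 CPM, under the minimum for a comparison.

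Genes of germ cell specification were lower too, at 546 CPM against 1058 CPM in the other germ cells. Somatic cells stood at 1052 CPM, so the sum of this list does not set germ cells apart from them. Ifitm1 and Ifitm3 made up most of the sum in both groups of germ cells. Of 5 compared, 2 were lower: Tfap2c, described above, and Ifitm3, an interferon-induced membrane gene of primordial germ cells (148 against 358 CPM, -1.27). Ifitm1 stood at 333 against 554 CPM (-0.74) and Kit, the receptor for stem cell factor, at 21.2 against 36.1 CPM (-0.77). Of the germline RNA-binding and piRNA genes, 2 of 13 compared were higher and 1 lower, with a median log2 ratio of 0.37. Dazl, which licenses germ cells for meiosis, stood at 1006 against 837 CPM (0.26), Fkbp6 at 438 against 335 CPM (0.39) and Mael at 340 against 208 CPM (0.71). The 2 higher genes were Gtsf1, a piRNA pathway gene (46.6 against 21.9 CPM, 1.09), and Boll, a relative of Dazl (25.7 against 12.8 CPM, 1.01), and neither was past the threshold with the other cells weighted for depth (0.75 and 0.83). The lower one was Dnd1, a translational regulator of primordial germ cells, at 25.2 against 110 CPM (-2.13). Dazl, Mael and Dnd1 were among the 6 genes of the selection.

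Mitotic genes were partly lower, and some of them were near level. Of 15 G2 and mitosis genes compared 6 were lower and none higher, with a median log2 ratio of -0.94, and the list summed to 1762 CPM against 2348 CPM. Ccnb1, the mitotic cyclin, stood at 32.5 CPM in the Sycp3+ Pou5f1- cells, 113 CPM in the Sycp3+ Pou5f1+ cells and 177 CPM in the Sycp3- cells (-1.94), and Ube2c, which acts with the anaphase-promoting complex, at 131 against 301 CPM (-1.20, and -0.92 weighted for depth). Top2a (430 against 389 CPM, 0.15) and Cenpf (333 against 392 CPM, -0.24) were near level. Weighted for depth, the ratio of the list's sum moved from -0.41 to -0.18 and 3 of the 6 genes stayed past the threshold. DNA replication genes were slightly lower as a list (1069 against 1234 CPM, log2 ratio -0.21, interval -0.24 to -0.17). The median log2 ratio of the 16 compared was -0.36 against 0.07 over all genes, and 4 of the 17 on the list had a ratio above 1. Of the 16 only Ccne2, cyclin E2, was past the threshold, at 115 against 35.1 CPM (1.72). Mcm5 stood at 158 against 134 CPM (0.23) and Mcm3 at 116 against 168 CPM (-0.53).

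The remaining lists each held 1 or 2 genes past the threshold, where 2.79% of all genes compared were lower and 4.87% higher. The log2 ratio of the list's sum was 1.24 for oocyte transcription (0.90 weighted for depth). It was -0.61 (-0.51) for the BCL2 family and p53 and -0.36 (-0.40) for BMP and retinoic acid response. G1 cyclins and CDK inhibitors (-0.02) and DNA methylation (-0.08) were near level as sums. Among cell cycle inhibitors and G1 cyclins, 1 of 8 was lower: Cdkn1a, the p53-induced inhibitor, at 26.2 against 73.1 CPM (-1.48), while Cdkn2a stood at 208 against 107 CPM (0.96) and Cdkn1c at 201 against 205 CPM (-0.03). Among genes of the BCL2 family and p53, Trp53 itself was lower, at 20.4 against 65.4 CPM (-1.68), and Bax stood at 167 against 266 CPM (-0.68). Of 4 DNA methylation genes compared, Tet1, a 5-methylcytosine dioxygenase, was lower at 14.1 against 45.5 CPM (-1.69), and the maintenance methyltransferase Dnmt1 stood at 183 against 168 CPM (0.12). Of 7 BMP and retinoic acid response genes, Rhox9 was lower at 290 against 636 CPM (-1.13), a call that was lost at -0.98 weighted for depth, and Id3 stood at 399 against 350 CPM (0.19). Of 5 oocyte transcription genes 2 were higher: Taf7l, a TFIID subunit, at 375 against 109 CPM (1.79) and Figla, a regulator of zona pellucida genes, at 93.3 against 28.7 CPM (1.70). Gdf9 and Zp3, genes of growing oocytes, were under the minimum.

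The difference from the Sycp3+ Pou5f1+ cells was present at every depth. The 2070 Sycp3+ cells were ordered by UMIs and divided into 5 depth classes of 414. In the shallowest class 184 cells (44.4%) had no Pou5f1, and in the deepest 25 (6.04%). Within each class the log2 ratio of the prophase lists was 0.57, 0.55, 0.68, 0.77 and 0.65 from shallow to deep, and that of the pluripotency list -1.05, -0.90, -1.11, -1.29 and -1.53. Prophase levels themselves were higher in shallow cells of both groups, at 9184 CPM in the shallowest class and 5342 CPM in the deepest for the Sycp3+ Pou5f1- cells. The same ran from 6186 to 3402 CPM in the Sycp3+ Pou5f1+ cells.

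**Figure D4:**
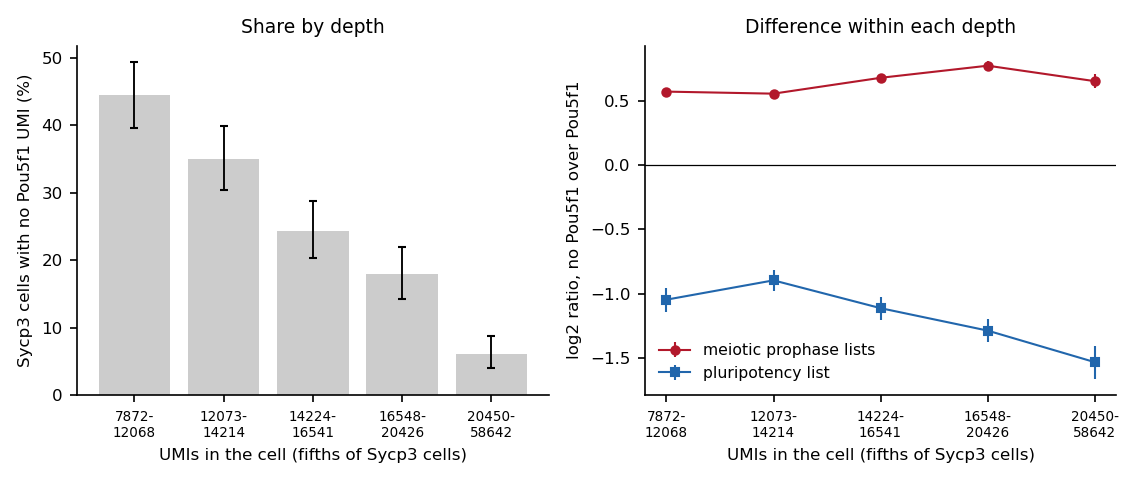
Left, share of the 414 Sycp3+ cells in each of 5 depth classes with no Pou5f1 UMI (y axis, percent, exact binomial 95% intervals), which runs from 44.4% to 6.04%. Right, log2 ratio of Sycp3+ Pou5f1- over Sycp3+ Pou5f1+ cells within each class for the prophase and pluripotency lists, with 95% intervals. The x axes give UMIs per cell.

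Summed levels changed step by step with the Pou5f1 UMI count, up to the edge of the condition. Group sums cannot show whether there is a gap between single cells at that edge. Sycp3+ cells with 1, 2, 3 to 4 and 5 or more Pou5f1 UMIs (403, 307, 392 and 439 cells) stood at 6661, 5056, 4302 and 2998 CPM of prophase genes and at 1105, 1468, 1828 and 2806 CPM of the pluripotency list. Just inside the condition the 529 cells stood at 8176 and 769 CPM. Median depth moved with the Pou5f1 count as well, from 13878 UMIs with 1 Pou5f1 UMI to 20565 with 5 or more. On the side of Sycp3, the 35 Sycp3+ Pou5f1- cells with a single Sycp3 UMI stood at 3936 CPM of prophase genes, and the 36 germ cells with neither gene at 1782 CPM. Of those 36 cells, 18 had at least 2 of 5 somatic marker genes (Wt1, Gata4, Nr2f2, Pdgfra and Tcf21).

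Of the 6 genes of the germ cell condition, Dnd1 and Dppa5a were themselves lower in the chosen cells. The 22 cells with 3 of the 6 genes stood at 5768 CPM of prophase genes, the 103 with 4 at 9011, the 317 with 5 at 8772 and the 87 with all 6 at 5795 CPM. The pluripotency list stood at 1176 CPM in those with all 6 and 624 CPM in those with 4, but Dppa5a is on that list and among the 6 genes, so the split itself sets part of this. In the cells with 3 genes Xist, the RNA of the inactive X, stood at 1367 CPM, against 116 CPM in those with 5. Only 11 E14.5 cells met the other conditions with 2 of the 6 genes, and they stood at 606 CPM of prophase genes. A further 30 cells met all but the condition on Alas2 and stood at 6960 CPM.

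The 529 cells differed among themselves in how much of the program they held. Each was thinned to 5000 UMIs and placed by its Sycp3 UMIs, as ranges rather than types. Prophase genes stood at 4767 CPM in the 45 cells with none left, 5219 CPM in the 95 with 1 and 9455 CPM in the 389 with 2 or more. Within the last group, in finer ranges chosen after the values were seen, they stood at 7379 CPM with 2 to 3 (146 cells), 9729 CPM with 4 to 5 (112 cells) and 11596 CPM with 6 or more (131 cells). Median depth was 15296 UMIs in the lowest range and 12690 UMIs in the highest.

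Single genes did not all climb with Sycp3. From the lowest to the highest of the 5 ranges Smc1b went from 1188 to 2874 CPM, Sycp1 from 427 to 978 CPM, Prdm9 from 24.9 to 190 CPM and Dmc1 from 56.8 to 145 CPM. Stra8 was highest in the middle: 1062, 1132, 1544, 1469 and 1166 CPM. Its level with 6 or more Sycp3 UMIs (interval 1116 to 1218) lay below that with 2 to 3 (1489 to 1600). Rec8 was lower at the top, at 212, 183, 191, 129 and 75.8 CPM. The pluripotency list went from 1355 to 422 CPM, Phlda2 from 296 to 13.3 CPM and Ccnb1 from 116 to 12.7 CPM, while the G2 and mitosis list as a whole stood at 2080.4 CPM in the lowest range, 1581 CPM with 2 to 3 and 1869.5 CPM with 6 or more.

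**Figure D5:**
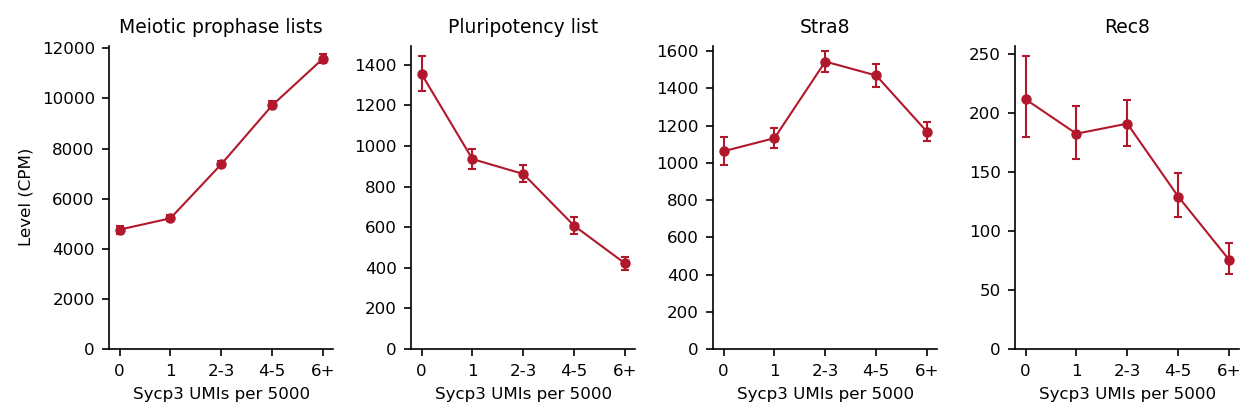
Levels (y axes, CPM, Poisson 95% intervals) of the prophase lists, the pluripotency list, Stra8 and Rec8 in the 529 Sycp3+ Pou5f1- cells by Sycp3 UMIs per 5000 (x axes). Prophase genes climb from 4767 to 11596 CPM, the pluripotency list and Rec8 go down, and Stra8 is highest at 2 to 3 UMIs.

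Markers of other gonadal cells were present at low levels and were concentrated in some of the cells. The 6 interstitial markers summed to 128 CPM (120 to 136) in the Sycp3+ Pou5f1- cells, 68.6 CPM in the other germ cells and 1077 CPM in somatic cells. The somatic cells were chosen partly on Pdgfra, Nr2f2 and Tcf21, which are on this list, so that choice sets part of their level. Of the 3 interstitial markers compared, 2, the collagen genes Col1a2 (1.01) and Col3a1 (1.08), were past the threshold. The 8 pre-granulosa markers summed to 93.9 against 82.2 CPM, with Foxl2 at 0 UMIs, and the 5 mesothelial markers to 133 against 127 CPM. These 2 sums were 67.3 and 104 CPM in the Sycp3+ Pou5f1+ cells and 151 and 233 CPM in the Sycp3- cells. The log2 ratios to the Sycp3+ Pou5f1+ cells were 0.48 (0.35 to 0.61) and 0.35 (0.24 to 0.46). Weighted for depth, the pre-granulosa, mesothelial and interstitial log2 ratios to the other germ cells were 0.51, 0.24 and 1.04. The 5 endothelial markers summed to 20.3 against 41.6 CPM, with Pecam1, also a gene of primordial germ cells, the single one past the threshold, and the 5 immune markers to 3.7 against 11.2 CPM, with Ptprc and Csf1r at 0. The 8 erythroid genes summed to 1112 against 1244 CPM, nearly all globin, with Alas2 at 0 by choice.

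Of the 529 cells, 54 had at least 2 of the 5 somatic marker genes, or 10.2%, against 7.42% of the other germ cells and 6.62% of the Sycp3+ Pou5f1+ cells. Of the 54, 10 were among the 13 called doublets. In the 54 cells Xist stood at 1034 CPM and the interstitial markers at 706 CPM, against 66.5 and 40.7 CPM in the other 475. Pdgfra, Nr2f2 and Tcf21 are interstitial markers and also among the 5 genes, so the choice itself sets part of the interstitial difference. The prophase lists stood at 4936 CPM in the 54 and 8664 CPM in the 475, and the pluripotency list at 627 and 791 CPM. By Sycp3 range the interstitial markers stood at 350, 278 and 56.0 CPM with 0, 1 and 2 or more UMIs, so the low end of the range above and the somatic markers moved together. Leaving out cells with 2 somatic markers in both groups gave 342 higher and 223 lower genes and a prophase log2 ratio of 1.04, against 0.99 with them.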

How the data were processed

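Gonads of 4 stages were profiled as 1 library each, read with the 10x kit named in the labels. Cell Ranger 2.2.0 and the mm10 build are named, per the submitters' processing notes. Alignment settings, cell calling, filters and normalization are not given in the sources used here. The deposited table held natural log values of UMIs scaled to 10000 per cell plus 1, by its values. Undoing this gave whole multiples of each cell's smallest value for 100% of 69792436 values above 0 (relative tolerance 1e-06), taken as UMI counts. The design had assumed counts. UMIs were summed by group and given as CPM with exact Poisson 95% intervals. With 1 library a stage no test was made. Thinning drew 5000 UMIs per cell, and no cell was shallower. Depth weighting gave the other germ cells the depth distribution of the chosen cells.

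Genes were named as the 12 highest and 12 lowest ratios and the 2 to 4 highest members of each list. Of these, 1 gene with a low ratio is not reported here. Other single genes were chosen after their values were seen. The cells and gene lists were chosen with earlier results of these data known. Doublets were called with Scrublet in scanpy 1.11.5 at an assumed rate of 0.06, and were kept. Alternatives varied the conditions, depth, scaling and minimum levels. Those comparing with Sycp3+ Pou5f1+ cells alone, leaving out cells with 2 somatic markers, using finer Sycp3 ranges and thinning the stage shares were chosen after seeing the data. The threshold for higher and lower genes, the intervals and the thinning were tested on simulated data.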

Additional observations from a re-analysis of the deposited data

How the results depend on the processing

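No paired analysis was possible because each stage has 1 library. The alternatives were run on the summed prophase lists, the pluripotency, DNA replication and G2 and mitosis lists and 71 genes. None of these changed direction, in 923 values for the genes, of which 155 moved beyond their counting interval. The 71 were the leading genes and the list genes past the threshold. Genes near level, such as Rec8, were left out of this count, so a change of sign was unlikely from the start. The chosen cells numbered 469 to 559 under every alternative except thinning to 5000 UMIs before the conditions, which gave 834. Depth had the widest effect. With the other germ cells weighted for depth, 94 genes were higher and 91 lower, and the log2 ratios were 0.73 for the prophase lists, -1.20 for pluripotency and -0.18 for G2 and mitosis. Thinning first gave 84 lower genes and ratios of 0.91 for prophase, -1.07 for pluripotency and -0.14 for DNA replication (against -0.21). A minimum of 200 UMIs with no CPM minimum gave 407 lower genes. Against the Sycp3+ Pou5f1+ cells alone the ratios were 0.87 for prophase, -1.35 for pluripotency and -0.37 for G2 and mitosis. With mean CPM of cells they were 0.93, -1.37 and -0.34, and with 2 of the 6 germ cell genes required 1.04, -1.38 and -0.38. Requiring 2 Sycp3 UMIs gave 1.04 for prophase and -1.50 for pluripotency. Leaving out cells with 3 somatic markers gave 1.02 for prophase and -0.44 for G2 and mitosis, and with 2 somatic markers 1.04 for prophase. The causes of these shifts were not tested. Intervals cover counting error only, and the spread between embryos or libraries is unknown.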

Other observations

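The class I major histocompatibility genes H2-K1 and H2-D1, on no list, were higher, and were picked after their values were seen. H2-K1 stood at 206 CPM (196 to 217) in the Sycp3+ Pou5f1- cells, 63.4 CPM in the Sycp3+ Pou5f1+ cells, 13.1 CPM in the Sycp3- cells and 4.47 CPM in somatic cells. Its log2 ratio to the other germ cells was 1.92, and 1.34 with those weighted for depth. It went from 70.6 CPM in chosen cells with no Sycp3 UMI after thinning to 341 CPM in those with 6 or more. Other class I genes, among them H2-Q7 (6.71 against 3.75 CPM), H2-T22 (0.96 against 1.65 CPM) and H2-M3 (0.68 against 0.66 CPM), were under the minimum level. B2m, the light chain of class I molecules, stood at 22.7 against 17.7 CPM (0.36), and Tap1, the peptide transporter gene, at 2.6 against 3.36 CPM. Cd74, the class II invariant chain, had 0 UMIs in the 529 cells, while the class II gene H2-Ab1 was among the 12 highest ratios.

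The count of X-linked genes past the threshold was also looked at after the values were seen, with no test. Of 226 X-linked genes compared 31 were higher (13.7%), against 4.87% of all genes and 1.64 to 6.38% on the other chromosomes, and 9 were lower (3.98%, against 2.79% of all). Weighted for depth the share was 12 of 227 (5.29%) against 1.66% of all. The X share of all UMIs was 4.26% against 4.12%. Examples were Taf7l, Rbmx2 (323 against 155 CPM), the purine salvage gene Hprt (296 against 142 CPM) and Cited1 (230.5 against 105 CPM). Weighted for depth, Taf7l was still past the threshold (1.26), and Rbmx2 (0.83), Hprt (0.75) and Cited1 (0.72) were not. Xlr4a, Xlr4b and Xlr4c were higher too (1.12, 1.10 and 1.10 weighted), but they are near-identical copies whose reads may be shared, so their separate levels are uncertain.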
